A study of Xenopus laevis with 96 samples.

Results

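The hox genes of paralogue group 4 were followed through gastrulation of Xenopus laevis, a frog whose genome holds 2 subgenomes, so that many genes exist as a long (L) and a short (S) copy. The members were the genes whose symbol in the deposited normalized table names group 4 of the hoxa, hoxb, hoxc or hoxd cluster with an L or S ending. These were 2 of 16322 genes, hoxb4.S (Xelaev18045986m) and hoxd4.L (Xelaev18044737m), out of 20 hox genes with a symbol in that table. They belong to different clusters and different subgenomes, so they are paralogues and not an L and S pair of 1 gene.

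The study measured whole-embryo transcriptomes by RNA sequencing after a short change in retinoic acid (RA) signalling. Eggs of 6 females gave 6 clutches, named A to F, whose embryos were treated for 2 h, ending at the early gastrula, then washed and collected 0, 1.5, 3 and 4.5 h later. All clutches were labelled stage 10.25 at 0 h, and the labelled stages differed between clutches at each later time. At 1.5 h clutch A was labelled stage 11.5 and the others stage 11. Clutches B and C were labelled stage 11.5 at 3 h and 12 at 4.5 h, and the others 12 and 12.5. RA-treated embryos received 10 nM all-trans RA. DEAB-treated embryos received 50 µM 4-diethylaminobenzaldehyde, an inhibitor of the aldehyde dehydrogenases that make RA. Ethanol-treated embryos received 0.5% ethanol, and control embryos received none of these agents. RA and DEAB stocks were made in DMSO. Each of the 96 libraries was made from 5 to 10 pooled embryos, with 1 library per clutch, group and time.

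Hox genes encode homeodomain transcription factors that give cells their position along the head-to-tail axis. Within a cluster, genes at the 3′ end (low paralogue numbers) are switched on earlier and further forward than genes at the 5′ end. Group 4 genes are known for marking the posterior hindbrain and anterior spinal cord, and RA, which acts through nuclear receptors bound to DNA, is a known activator of them in several vertebrates. RA itself is made from retinaldehyde and broken down by Cyp26 enzymes.

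Total counts ran from 5528562 to 15869722 reads per library, with a median of 11691899.5, so that 3 reads corresponded to 0.176 to 0.640 CPM, the read count per unit of library size that edgeR reports. Of the marker genes looked up for mesoderm, organizer, endoderm, neural plate, epidermis and hindbrain, 37 were in the deposited normalized table. All 37 had reads in some library, but that table had been filtered on low expression, so this is not an independent finding. The looked-up sox17b, sox2 and egr2 were not among them. The 3 hindbrain marker genes among the 37 together ran from 1.62 to 118 CPM. The study had used hoxb4.S, among other genes, in quantitative PCR to select the clutches to be sequenced. The direction of its response to RA and DEAB is therefore not independent evidence, nor are the clutch counts and p-values of that response. In whole embryos, fewer cells of a type and less RNA per cell cannot be told apart. In the RefSeq annotation of assembly Xenopus_laevis_v10.1, hoxd4.L overlaps hoxd3.L, and hoxb4.S overlaps the non-coding LOC108702522 and the protein-coding LOC108702517. The strand setting of the counting is not given in the sources used here, so the reads of these genes may be shared.

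Both genes were close to silent at the end of the treatment and rose in control embryos at every step that followed. At 0 h the 6 control libraries held 5 reads of hoxb4.S in all, and clutches A to F had 2, 0, 1, 1, 1 and 0 reads. For hoxd4.L they held 1 read, in clutch D. The control level of hoxb4.S was 1.18 ± 0.875 CPM at 1.5 h, 6.99 ± 4.50 CPM at 3 h and 14.5 ± 5.77 CPM at 4.5 h (SD, n = 6). That of hoxd4.L was 0.149 ± 0.194 CPM at 1.5 h, when the 6 libraries held 9 reads, 2.15 ± 1.44 CPM at 3 h and 8.50 ± 3.30 CPM at 4.5 h. At 4.5 h the lowest, median and highest control clutch stood at 8.59, 13.4 and 23.3 CPM for hoxb4.S and at 3.54, 8.38 and 12.8 CPM for hoxd4.L. Clutches therefore differed by more than 2-fold at a single time point in both genes.

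In edgeR's quasi-likelihood test with the clutch as a block, both genes were higher at each later time. The log2 changes of hoxb4.S in control embryos were 4.17 (SE 0.57) at 1.5 h against 0 h, 2.45 (SE 0.29) at 3 h against 1.5 h and 1.22 (SE 0.24) at 4.5 h against 3 h, with adjusted p of 6.20e-06, 1.79e-06 and 3.29e-04. Those of hoxd4.L were 2.65 (SE 0.92), 3.90 (SE 0.43) and 2.10 (SE 0.26), with adjusted p of 0.0211, 7.72e-07 and 2.79e-06. Such calls were common: 23.8%, 23.8% and 21.9% of the 20295 genes tested were called higher at these steps. The first step of hoxd4.L rests on 9 reads against 1, a ratio of 11.8 (95% exact Poisson interval 1.63 to 517), and with 1 clutch left out in turn its adjusted p ran from 0.0102 to 0.0700, with the call lost without clutch D, E or F. From 0 to 4.5 h the summed reads of hoxb4.S in control embryos were 785 against 5, a ratio of 241 (103 to 745) after scaling to library size. For hoxd4.L they were 464 against 1, a ratio of 713 (127 to 28233). These intervals and all other Poisson intervals cover counting error only.

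**Figure D1:**
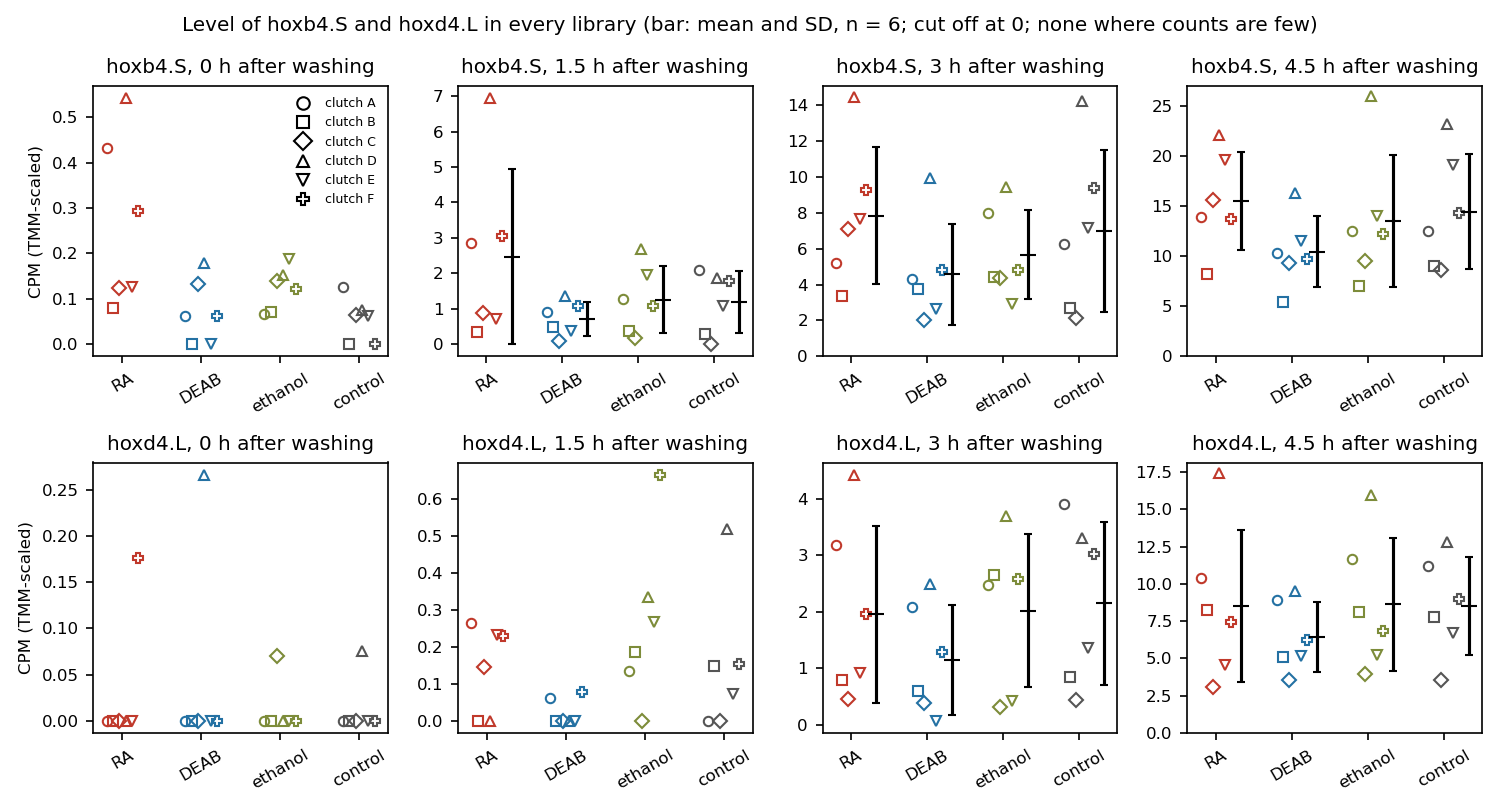
Level of hoxb4.S (top row) and hoxd4.L (bottom row) in each library, in CPM scaled by TMM, at 0, 1.5, 3 and 4.5 h after washing. Points are the 6 clutches in RA, DEAB, ethanol and control embryos, and bars give the mean and SD where counts were not few. The scale of the axis grows from panel to panel, and the ranges of the 4 groups overlap in every panel. Clutch D is the highest clutch of hoxb4.S in every group at 3 and 4.5 h.

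From 1.5 h on, both genes also increased after each treatment. Every clutch of every group had a higher CPM of hoxb4.S and of hoxd4.L at 3 h than at 1.5 h and at 4.5 h than at 3 h. From 0 to 1.5 h the increase was not seen for hoxd4.L in DEAB embryos, which held 2 reads at 1.5 h and 3 at 0 h. Between 3 and 4.5 h the summed reads of hoxb4.S grew 2.03-fold in RA embryos (95% exact Poisson interval 1.82 to 2.28), 2.44-fold in DEAB embryos (2.11 to 2.82), 2.49-fold in ethanol embryos (2.18 to 2.84) and 1.99-fold in control embryos (1.77 to 2.25). Those of hoxd4.L grew 4.43-fold in RA embryos (3.61 to 5.46), 5.92-fold in DEAB embryos (4.57 to 7.76), 4.44-fold in ethanol embryos (3.62 to 5.49) and 3.66-fold in control embryos (3.03 to 4.45). The fold of this last step was thus larger for hoxd4.L than for hoxb4.S in each group.

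The same difference between the 2 genes was measured per clutch, as the share of the 4.5 h level already present at 3 h. This share is the inverse of the fold from 3 to 4.5 h, so it is not a separate result. In RA embryos hoxb4.S had reached 49.3% ± 13.7 of its 4.5 h level by 3 h and hoxd4.L 21.2% ± 7.80 (SD, n = 6 clutches). In DEAB embryos the shares were 44.4% ± 19.5 and 15.7% ± 9.34, in ethanol embryos 44.9% ± 16.6 and 21.8% ± 12.3, and in control embryos 44.9% ± 16.8 and 23.0% ± 10.2. Some shares of hoxd4.L rest on few reads. Its lowest library at 3 h held 5 reads in RA, 1 in DEAB, 3 in ethanol and 5 in control embryos. The share was higher for hoxb4.S in 6 of 6 clutches in each of the 4 groups. The exact two-sided sign-flip test over the 6 clutches gave p = 0.03125 in each group, the smallest value it can give, and 0.03125 after Benjamini-Hochberg adjustment over the 4 groups. The groups came from the same 6 clutches, and the comparison was chosen after the data had been seen.

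**Figure D2:**
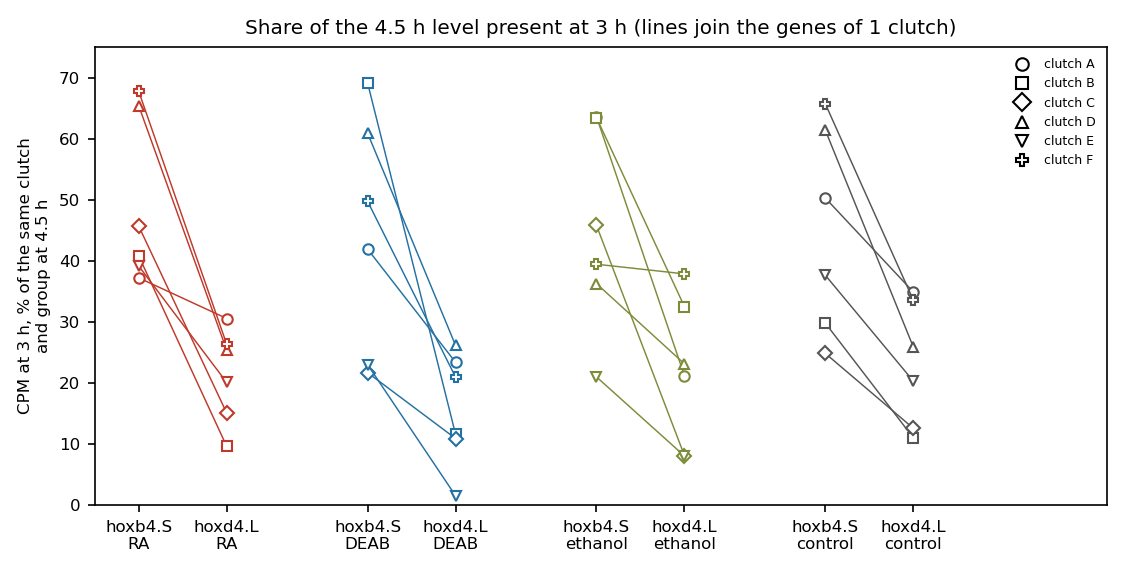
CPM at 3 h as a percentage of the CPM of the same clutch and group at 4.5 h, for hoxb4.S and hoxd4.L in RA, DEAB, ethanol and control embryos. Each line joins the 2 genes in 1 clutch. All 6 lines of each group run down to hoxd4.L, and in the ethanol group clutch F is nearly flat.

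Some neighbours of a member in its cluster ran close to it in control embryos, and others did not. From the control means, 31.6% of the 4.5 h level was present at 3 h for hoxb1.S, 48.4% for hoxb4.S, 48.7% for hoxb6.S and 18.2% for hoxb9. In the hoxd cluster the values were 94.9% for hoxd1.L, 21.7% for hoxd3.L and 25.3% for hoxd4.L. The genes hoxd3.L and hoxd4.L overlap in the annotation and may share reads. Along hoxd the share thus fell with the gene order from hoxd1.L to hoxd3.L, but not from hoxd3.L to hoxd4.L. Along hoxb it did not fall from hoxb1.S to hoxb4.S or hoxb6.S, and was lowest for hoxb9. These neighbours were chosen after the data had been seen, and the differences between them were not tested.

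At 0 h, directly after the treatment, hoxb4.S had too few reads for the test across all genes, but RA embryos held more of them. Clutches A to F had 7, 1, 2, 7, 2 and 5 reads in RA embryos, 1, 0, 2, 2, 0 and 1 in DEAB embryos, 1, 1, 2, 2, 3 and 2 in ethanol embryos and 2, 0, 1, 1, 1 and 0 in control embryos. RA embryos were above control embryos in 6 of 6 clutches, although the ranges of the groups overlapped. Clutches had been selected partly on this gene's response, so this count and the p-values below are not independent evidence. The summed reads were 24 in RA embryos and 5 in control embryos, a ratio of 4.64 (95% exact Poisson interval 1.74 to 15.6), and the exact two-sided sign-flip test gave p = 0.03125, the smallest possible. Over the 32 such tests of 2 genes, 4 comparisons and 4 times, its Benjamini-Hochberg adjusted value was 0.2. Without the filter on low counts, edgeR gave an adjusted p of 0.129 for this difference. Against the 6 reads of DEAB embryos the ratio was 3.87 (1.54 to 11.6), higher in 5 of 6 clutches. For hoxd4.L all groups held 1 to 3 reads in all at 0 h, so no difference was detectable at this depth.

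**Figure D3:**
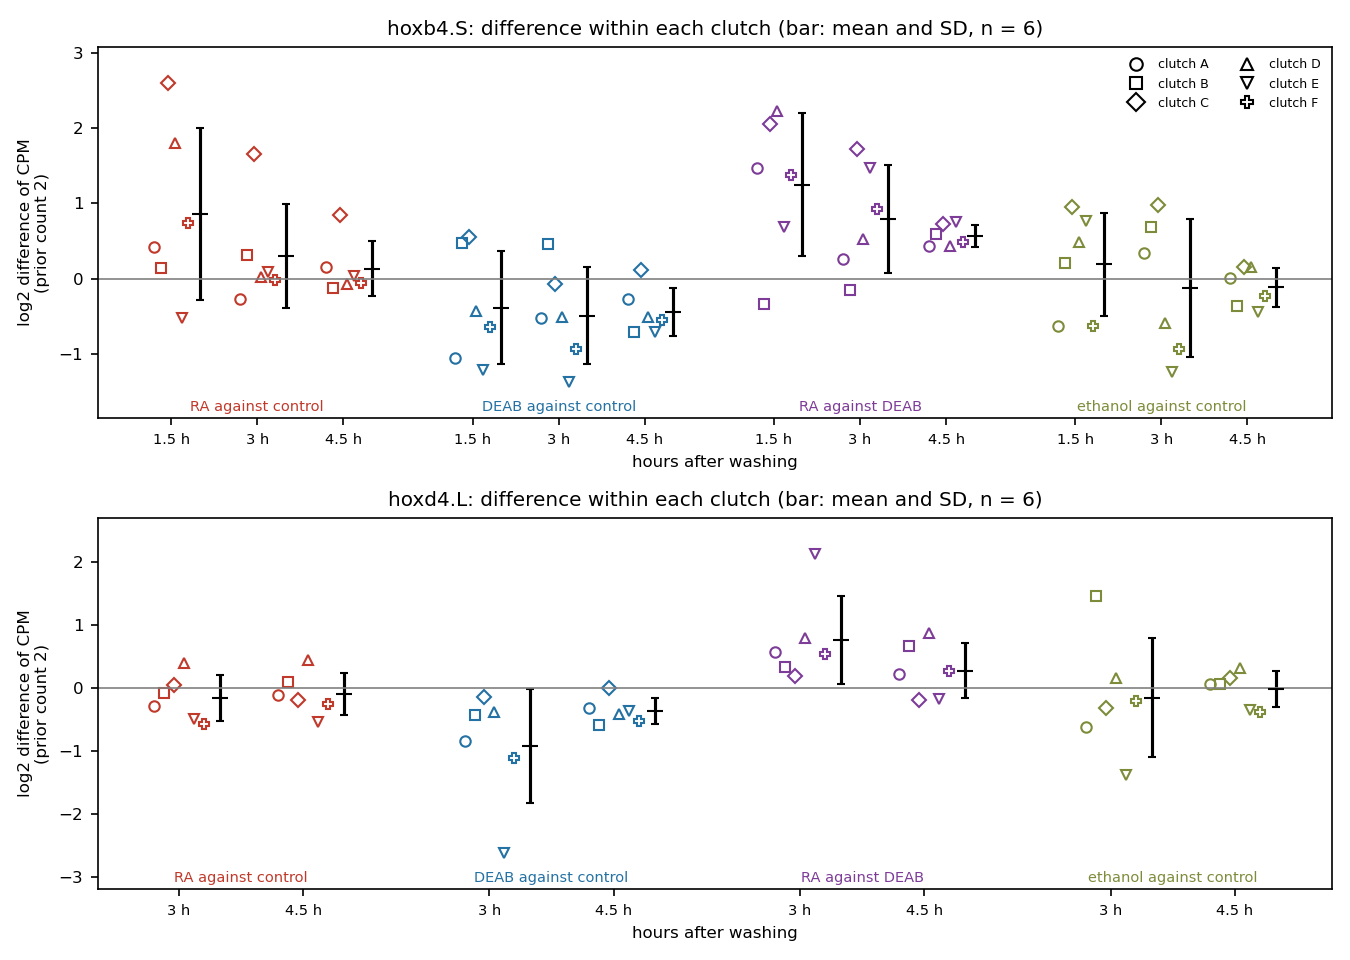
Difference between groups within each clutch, as log2 CPM with a prior count of 2, for hoxb4.S (top) and hoxd4.L (bottom) at the times when each passed the filter on low counts. Points are clutches and bars the mean and SD of 6. For hoxb4.S the RA against DEAB differences at 4.5 h lie between 0.43 and 0.75, all above 0, while clutch C stands above the others for RA against control at 3 and 4.5 h.

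After the wash, hoxb4.S was higher in RA embryos than in DEAB embryos, and neither treatment differed from control past the threshold. The selection of clutches on this gene also limits these comparisons and those at later times. At 1.5 h the lowest, median and highest clutch stood at 0.345, 1.86 and 6.94 CPM in RA embryos, at 0.0786, 0.699 and 1.34 CPM in DEAB embryos, at 0.159, 1.18 and 2.68 CPM in ethanol embryos and at 0, 1.42 and 2.09 CPM in control embryos. RA embryos were above DEAB embryos in every clutch but B. The log2 difference between RA and DEAB was 1.66 (SE 0.34, 3.16-fold), with an adjusted p of 0.0112 in edgeR's quasi-likelihood test. Thus 1 of the 1 member tested was called higher at 1.5 h, where 0.982% of the 19543 genes tested were called higher. The call was lost without clutch A, D or F, with adjusted p of 0.0706, 0.108 and 0.0783. It was also lost in limma on the deposited values (0.0822) and, in edgeR, without the replicate block (0.99995).

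The difference between RA and DEAB did not pass the threshold at 3 h and passed it again at 4.5 h. At 3 h the lowest, median and highest clutch stood at 3.37, 7.39 and 14.5 CPM in RA embryos, at 2.02, 4.04 and 9.95 CPM in DEAB embryos, at 2.94, 4.62 and 9.42 CPM in ethanol embryos and at 2.13, 6.73 and 14.3 CPM in control embryos. The log2 difference between RA and DEAB was then 0.82 (SE 0.22) with an adjusted p of 0.116. At 4.5 h the same 3 values were 8.25, 14.8 and 22.1 CPM in RA embryos, 5.43, 10.0 and 16.3 CPM in DEAB embryos, 6.995, 12.4 and 26.0 CPM in ethanol embryos and 8.59, 13.4 and 23.3 CPM in control embryos. RA embryos were higher than DEAB embryos in 6 of 6 clutches, by 0.58 on the log2 scale (SE 0.11, 1.49-fold), with an adjusted p of 0.0149. Of the 2 members tested at each time, 0 were called higher at 3 h, where 0.887% of all genes were, and 1 at 4.5 h, where 0.724% were. At 3 h DESeq2 called hoxb4.S higher, with an adjusted p of 0.0326, and edgeR did so without clutch B (0.0441). The edgeR fit without a filter on low counts and that of all 72 libraries also called hoxb4.S higher at 3 h. Over the 8 alternatives that kept all clutches, its adjusted p at 3 h ran from 0.00708 to 0.99999. The 4.5 h call was lost without clutch E or F, with adjusted p of 0.110 and 0.0608. It was also lost in the edgeR fit of all 72 libraries (0.0845), in limma on the deposited values (0.0542) and, in edgeR, without the replicate block (0.99999).

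Against control embryos, hoxb4.S had positive log2 differences in RA embryos and negative ones in DEAB embryos at all 3 times, none past the threshold. Those of RA were 0.87 (SE 0.31), 0.23 (SE 0.21) and 0.12 (SE 0.11) at 1.5, 3 and 4.5 h, with adjusted p of 0.267, 0.874 and 0.861. Without clutch C the RA difference was 0.0011 at 3 h and -0.0040 at 4.5 h, so these later values rest on that clutch. Those of DEAB were -0.79 (SE 0.37), -0.59 (SE 0.22) and -0.45 (SE 0.11), with adjusted p of 0.637, 0.396 and 0.102. DEAB embryos were lower than control embryos in 4, 5 and 5 of 6 clutches at these times. Without clutch C the DEAB difference at 4.5 h was called (-0.55, adjusted p = 0.00668), and it was also called without the filter on low counts (adjusted p = 0.0434). Before adjustment over all genes, edgeR's p was under 0.05 for hoxb4.S in RA embryos at 1.5 h (0.0113) and in DEAB embryos at all 3 times (0.0462, 0.0174 and 0.000793). The same held for 2295 of 19543 genes tested in RA embryos at 1.5 h. In DEAB embryos it held for 1514 of 19543, 1915 of 19400 and 2077 of 19750 genes at 1.5, 3 and 4.5 h. After adjustment, 0.655%, 0.16% and 0% of all genes were called between RA and control at 1.5, 3 and 4.5 h, and 0%, 0.0361% and 0.263% between DEAB and control. The control clutches spread from 8.59 to 23.3 CPM of hoxb4.S at 4.5 h, and from 85 to 213 reads at unequal depth.

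The RA difference from control was not shown to depend on time. In a fit of the 72 RA, DEAB and control libraries, edgeR's test of RA by time gave an adjusted p of 0.716 for hoxb4.S (0.0173 before adjustment over all genes, of which 0.0272% were called). Before adjustment, 1318 of 22092 genes had a p under 0.05 in this test. For hoxd4.L the adjusted p was 0.9999. The test of DEAB by time gave adjusted p of 0.975 for hoxb4.S and 0.754 for hoxd4.L.

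No difference of hoxd4.L between treatments passed the threshold in the test across all genes. At 3 h the lowest, median and highest clutch stood at 0.462, 1.44 and 4.42 CPM in RA embryos, at 0.0781, 0.945 and 2.49 CPM in DEAB embryos, at 0.320, 2.53 and 3.69 CPM in ethanol embryos and at 0.444, 2.19 and 3.91 CPM in control embryos. DEAB embryos had less than control embryos in 6 of 6 clutches and less than RA embryos in 6 of 6 clutches, while the ranges of the groups overlapped. The log2 difference of DEAB from control was -0.98 (SE 0.27), with an adjusted p of 0.271 and an unadjusted p of 0.00161 in edgeR's test. In that comparison 1915 of 19400 genes had an unadjusted p under 0.05. The summed reads were 69 in DEAB embryos and 141 in control embryos, a ratio of 0.487 (95% exact Poisson interval 0.360 to 0.654). The log2 difference of RA from DEAB was 0.78 (SE 0.27), with an adjusted p of 0.354. The exact sign-flip test over the 6 clutches gave p = 0.03125 for both, the smallest it can give, and 0.2 after adjustment over the 32 tests.

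At 4.5 h the estimated differences of hoxd4.L were smaller than at 3 h. The lowest, median and highest clutch stood at 3.07, 7.85 and 17.4 CPM in RA embryos, at 3.54, 5.69 and 9.52 CPM in DEAB embryos, at 3.96, 7.48 and 15.95 CPM in ethanol embryos and at 3.54, 8.38 and 12.8 CPM in control embryos. DEAB embryos were lower than control embryos in 5 of 6 clutches, with a log2 difference of -0.40 (SE 0.13, adjusted p = 0.270). The RA differences from control were -0.20 (SE 0.25, adjusted p = 0.911) at 3 h and -0.07 (SE 0.13, adjusted p = 0.955) at 4.5 h. The log2 difference of RA from DEAB at 4.5 h was 0.33 (SE 0.13, adjusted p = 0.494), positive in 4 of 6 clutches. At 1.5 h the 6 libraries of a group held 12 reads of hoxd4.L in RA embryos, 2 in DEAB embryos, 18 in ethanol embryos and 9 in control embryos, which the filter on low counts left untested.

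Ethanol embryos did not differ from control embryos past the threshold in either gene. For hoxb4.S the log2 differences were 0.04 (SE 0.30), -0.22 (SE 0.26) and -0.12 (SE 0.10) at 1.5, 3 and 4.5 h, with adjusted p of 0.985, 0.972 and 0.899. For hoxd4.L they were -0.15 (SE 0.30) and -0.03 (SE 0.12) at 3 and 4.5 h, with adjusted p of 0.986 and 0.985. No unadjusted p was under 0.05. Of all genes, 0.065%, 0% and 0.00531% were called at these times. With SEs of about 0.30 at 1.5 h for hoxb4.S and at 3 h for hoxd4.L, differences of that size were not detectable with these 6 clutches at this depth. Within clutches the log2 difference of hoxd4.L at 3 h ran from -1.38 to 1.46.

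On the deposited log2 values, which hold the RA, DEAB and control libraries only, limma's test in a 2-way layout of treatment and time called a treatment effect for hoxb4.S, with an adjusted p of 0.000226, and none for hoxd4.L, with an adjusted p of 0.0798. That fit has no clutch block. With the block the adjusted p of hoxb4.S was 0.000505. The call was lost when the layout was fitted to log2 CPM, again without the block (adjusted p = 0.464). The layout was not fitted to log2 CPM with the block. Of the 16322 genes, 6.1% were called for treatment. The mean deposited log2 value of hoxb4.S was 4.64 in RA, 3.96 in DEAB and 4.30 in control embryos at 1.5 h. At 3 h it was 5.86 in RA, 5.31 in DEAB and 5.70 in control embryos, while at 4.5 h it was 6.61 in RA, 6.17 in DEAB and 6.52 in control embryos. That of hoxd4.L at 3 h was 3.62 in RA, 3.17 in DEAB and 3.82 in control embryos, while at 4.5 h it was 5.37 in RA, 5.13 in DEAB and 5.45 in control embryos. The interaction of treatment and time was called for neither gene, and for 0.0123% of all genes.

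Whether the 2 genes responded by different amounts was tested within clutches. The response of hoxb4.S minus that of hoxd4.L was computed for RA, DEAB and ethanol against control and RA against DEAB, at 3 and 4.5 h. None of these 8 differences passed the threshold by the exact sign-flip test with Benjamini-Hochberg adjustment. The smallest p this test can give is 0.03125, so after adjustment over 8 tests a single difference could not have passed. The largest were 0.47 (95% interval -0.24 to 1.18) for RA against control and 0.43 (-0.12 to 0.98) for DEAB against control at 3 h, each positive in 5 of 6 clutches with an adjusted p of 0.375. For RA against DEAB the difference between the genes was 0.04 (-0.82 to 0.90, adjusted p = 0.969) at 3 h and 0.30 (-0.27 to 0.87, adjusted p = 0.542) at 4.5 h. The calls of hoxb4.S and their absence in hoxd4.L therefore do not show that the genes differ in response, nor do these intervals show that they respond alike. The planned comparison of an L with an S copy could not be run, since no group 4 gene has both in the normalized table.

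Position along the developmental course was measured beside these differences. On the first principal component of all libraries, with hox genes left out, which held 70.4% of the variance and was scaled to hours of the control course, RA embryos were shifted by -0.162 ± 0.103, -0.134 ± 0.154, -0.0921 ± 0.209 and -0.154 ± 0.0936 h from control embryos of their clutch at 0, 1.5, 3 and 4.5 h (SD, n = 6). DEAB embryos were shifted by -0.209 ± 0.214, -0.153 ± 0.224, -0.178 ± 0.396 and -0.202 ± 0.197 h. By the exact sign-flip test, p was 0.03125 for RA embryos at 0 h, lower in 6 of 6 clutches, and 0.0625 to 0.375 for the other 7 shifts, before any adjustment. The part of these shifts in the differences of hoxb4.S and hoxd4.L from control was not tested.

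The hox genes on either side of group 4 showed different counts of calls between RA and DEAB embryos. Of the groups 1 to 3, which are expressed furthest forward, 5 of 5 tested genes were higher in RA embryos at 0 h, 6 of 6 at 1.5 h, 6 of 8 at 3 h and 6 of 8 at 4.5 h, with median log2 differences of 2.66, 2.08, 1.35 and 0.90. In the same comparisons 0.439%, 0.982%, 0.887% and 0.724% of all genes were called higher, and their median log2 differences were at or within 0.01 of 0. Of the 9 genes of groups 5 to 13 with an L or S ending, which pattern the trunk and tail, none passed the filter at 0 h, 0 of 3 were called at 1.5 h, 0 of 9 at 3 h and 1 of 9 at 4.5 h, with medians of 1.11, 0.69 and 0.27 at the last 3 times. That gene was hoxa7.L, at 0.46. hoxb9, whose symbol has no such ending, stood outside this list, and its log2 differences of 1.02 at 3 h (adjusted p = 0.337) and 0.80 at 4.5 h (adjusted p = 0.0955) were not called. The group 4 genes, with 1 of 1, 0 of 2 and 1 of 2 called at 1.5, 3 and 4.5 h, had log2 differences of 1.66 (hoxb4.S) at 1.5 h, 0.82 (hoxb4.S) and 0.78 (hoxd4.L) at 3 h, then 0.58 (hoxb4.S) and 0.33 (hoxd4.L) at 4.5 h. Genes that passed the filter are not all members of these lists, and whether the groups of hox genes differ from one another was not tested.

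Single hox genes had the following values. hoxb1.S, a hindbrain gene at the 3′ end of its cluster, was higher in RA than in DEAB embryos by 2.89 at 1.5 h, 1.41 at 3 h and 0.75 at 4.5 h, all called. hoxa3.S, a comparison gene of another cluster, was tested from 3 h and had log2 differences of 1.32 at 3 h, which was not called, and 1.14 at 4.5 h, which was. hoxb6.S had log2 differences of 0.80, 0.60 and 0.18 at 1.5, 3 and 4.5 h, none of them called. hoxd3.L, the gene that overlaps hoxd4.L in the annotation, had log2 differences of 0.43 at 3 h and 0.23 at 4.5 h, neither called. In RA against control, 3 of 5 genes of groups 1 to 3 were higher at 0 h and 5 of 6 at 1.5 h, where 0.31% and 0.548% of all genes were, and 0 of 8 at each later time. In DEAB against control, 3 of 5 were lower at 0 h, 0 of 6 at 1.5 h, 0 of 8 at 3 h and 3 of 8 at 4.5 h, and 1.21% and 0.253% of all genes were lower at the first and the last of these times. hoxa2.S was among the genes called at 4.5 h (-0.85).

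Genes that act with or upstream of hox genes were examined in the same way. The hox cofactors were 8 genes of the Pbx, Meis and Pknox families, all tested at each time. Pbx and Meis proteins bind DNA together with Hox proteins. Of the 8 genes, meis3.L was higher in RA than in DEAB embryos at 0, 1.5, 3 and 4.5 h, by 1.69, 1.32, 0.80 and 0.73, and meis3.S at 4.5 h by 0.36. Among the cdx genes, activators of trunk hox genes, cdx4.S was higher at 1.5 and 3 h by 0.43 and 0.48, out of 6. Of the RA metabolism genes, cyp26a1.L, cyp26a1.S, cyp26c1.L and cyp26c1.S, which encode RA-degrading enzymes, and dhrs3.L, which encodes a retinaldehyde reductase, were higher at all 4 times, and rdh10.S, which encodes a retinol dehydrogenase, was lower at 3 h by 0.28. At 4.5 h their log2 differences were 0.85 for cyp26a1.L, 0.89 for cyp26a1.S, 1.87 for cyp26c1.L, 1.90 for cyp26c1.S and 1.22 for dhrs3.L. The number of other RA metabolism genes tested is not reported here. Of the 4 RA receptor genes none was called at any of the 4 times. Over all genes tested, 0.439%, 0.982%, 0.887% and 0.724% were called higher in RA than in DEAB embryos at 0, 1.5, 3 and 4.5 h. At 3 h 0.0825% were called lower.

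The level of both genes was also compared by the stage recorded for a clutch. At 3 h clutches B and C were labelled stage 11.5 and the other 4 stage 12, and at 4.5 h they were labelled stage 12 and the others 12.5. At 3 h control embryos of the later stage averaged 9.28 CPM of hoxb4.S, against 2.41 CPM in clutches B and C, and the ranges, 6.28 to 14.3 and 2.13 to 2.69 CPM, did not overlap. For hoxd4.L they averaged 2.90 CPM, against 0.649 CPM, with ranges of 1.36 to 3.91 and 0.444 to 0.855 CPM. The exact permutation test, run on log2 CPM with a prior count of 2, gave p = 0.0667 for each, the smallest that 4 against 2 clutches can give. The folds that follow come from means of these log2 values and are not ratios of the CPM averages. With the 4 groups of a clutch averaged, the 3 h difference was 1.91-fold for hoxb4.S (exact p = 0.133) in place of 3.51-fold in control embryos. For hoxd4.L it was 2.46-fold (exact p = 0.267) in place of 3.64-fold, and the ranges, 0.693 to 3.48 and 0.403 to 1.22 CPM, overlapped. At 4.5 h the averages in control embryos were 17.3 and 8.80 CPM for hoxb4.S (p = 0.133) and 9.92 and 5.65 CPM for hoxd4.L (p = 0.200) by the same exact test. Clutch and stage cannot be told apart here, since each clutch has 1 stage per time. Averaged over the 4 groups, hoxd4.L was lowest in clutch C at 3 and at 4.5 h (0.403 and 3.53 CPM), while hoxb4.S was lowest in clutch B (3.56 and 7.42 CPM). Both were highest in clutch D at each of these times.

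**Figure D4:**
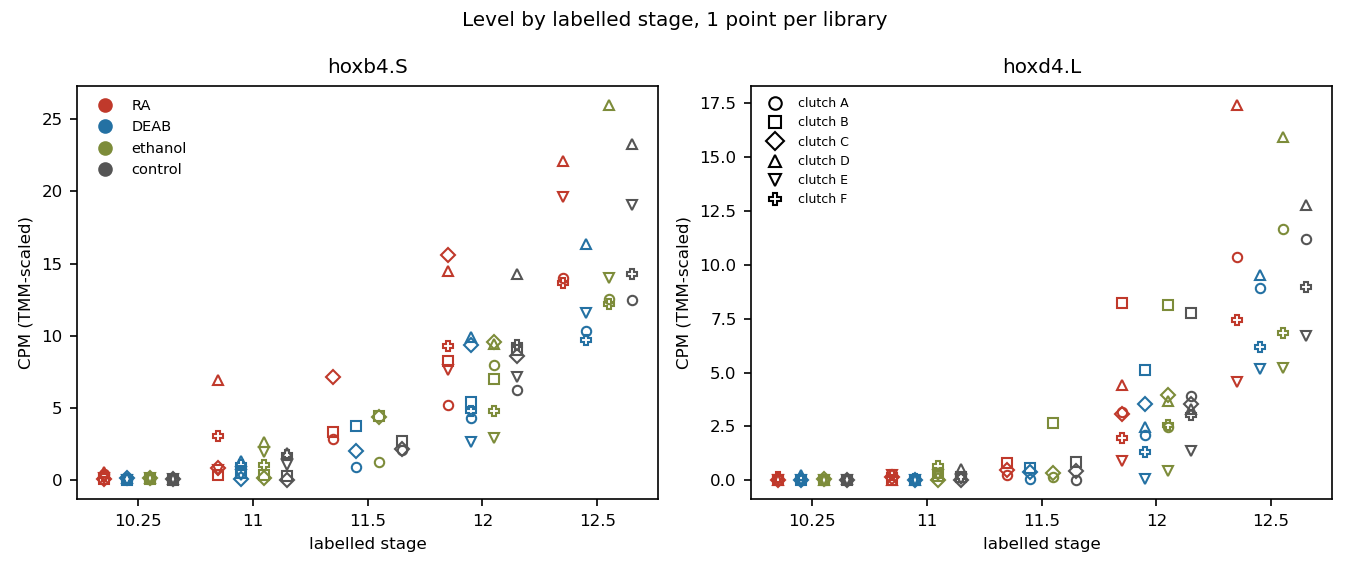
Level of hoxb4.S (left) and hoxd4.L (right) in CPM against the labelled stage, with 1 point per library, coloured by group and shaped by clutch. Both genes lie near 0 at stage 10.25 and reach their highest values at stage 12.5, where clutch D has the highest points. Stage 12 holds libraries of clutches A, D, E and F at 3 h and of clutches B and C at 4.5 h.

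The genes most like each member were sought by the Pearson correlation of log2 CPM over the 96 libraries after the mean of each clutch and time was removed, among 14817 other genes with a symbol. This is a description over libraries that share clutches and depth. For hoxb4.S the most alike were gbx2.2.L (r = 0.80), whose product is a homeodomain protein of the midbrain-hindbrain boundary, and LOC108709893 (0.76). For hoxd4.L they were fndc3a.2.L (0.57) and surf4.1.L (0.52). The 99th percentile over all genes was 0.51 for hoxb4.S and 0.37 for hoxd4.L, and the correlation between the members was 0.29. Without the ethanol libraries, gbx2.2.L and LOC108709893 stayed the first 2 genes for hoxb4.S (0.84 and 0.85), whereas LOC108712587 (0.66) and cfi.L (0.63) led the list of hoxd4.L. The low counts of hoxd4.L at 0 and 1.5 h limit how far its list can be read.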

How the data were processed

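Total RNA of pooled whole embryos was sequenced on an Illumina instrument. The authors used STAR for mapping to genome build X. laevis 9.1 and verse for counting, and the raw counts per gene of 96 libraries were deposited. The submitters' processing notes also name bcl2fastq, FastQC and DESeq2. The deposited log2 values of 72 libraries, without ethanol, are regularized-log values that the authors batch-corrected with ComBat, filtered on low expression and quantile-normalized, which evens out differences between libraries. The batch variable is not given in the sources used here.

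The group 4 genes and all gene lists were chosen with earlier results of these data known. By the naming rule the text names the members, the 2 genes most correlated with each member and comparison genes from the study's primers (cyp26a1.L, hoxb1.S and hoxa3.S here). Other genes of the lists were named after their values were seen, and results of some genes are not reported here. Counts were tested with edgeR 4.0.16 (TMM scaling, filterByExpr with default settings, quasi-likelihood F test, clutch as a block, Benjamini-Hochberg threshold 0.05) in R 4.3.3. RA, DEAB and control libraries of a time were fitted together, ethanol with control separately, and the control libraries of all times for the time course. SEs were derived from the F statistic. The filter kept 19376 to 19750 genes per time (18473 to 18837 for ethanol), and both members passed over all 96 libraries, hoxb4.S from 1.5 h and hoxd4.L from 3 h within a time. For the deposited values, limma 3.58.1 was run with treatment, time and their interaction and no block. As an alternative to the edgeR tests between groups, limma was run on the deposited values of each time separately, with clutch as a block. CPM used TMM-scaled library sizes with no prior count, and within-clutch log2 differences a prior count of 2. The steps were tested on simulated data. No 2 libraries of the 240 pairs compared were identical.

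Libraries of 1 clutch come from 1 female, and the deviations of same-clutch libraries from their group means correlated in all 96 pairs of groups and clutches examined (r = 0.495 to 0.868), so the clutch pairs the samples. Alternatives were DESeq2 1.42.0, RLE scaling, no filter, no block, wider fits, the deposited values, L and S copies summed, and each clutch left out in turn.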

Additional observations from a re-analysis of the deposited data

Results flagged for a closer look

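Of 40 sets of 6 clutches examined for a value far from the rest (Dixon's criterion at 95%), 5 were flagged, and chance flags about 1 in 20. In 2 of them clutch C stood apart for hoxb4.S in RA against control, with a log2 difference of 1.66 at 3 h, where the other clutches lay between -0.27 and 0.31, and 0.85 at 4.5 h, where they lay between -0.13 and 0.16. Clutch E had a log2 difference of 2.12 for hoxd4.L in RA against DEAB at 3 h, with the others between 0.19 and 0.79, and its DEAB library held 1 read of that gene. Clutch D had 9.95 CPM of hoxb4.S in DEAB embryos at 3 h, with the others between 2.02 and 4.82 CPM, and 26.0 CPM in ethanol embryos at 4.5 h, with the others between 6.995 and 14.003 CPM.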

How the results depend on the processing

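Over 410 recomputed values of single comparisons of the 2 genes, 399 kept their direction and 378 also kept their side of the threshold; 15 lost a call, 6 gained one and 11 changed sign. Without the replicate block, which ignores the pairing of libraries by clutch, the count of group 4 genes called was 0 for RA against DEAB at 1.5 h (1 with the block) and 0 at 4.5 h (1 with it), and 1 for control embryos at 1.5 h against 0 h and 1 at 4.5 h against 3 h (2 with it in both). In the same fit the log2 difference of hoxd4.L at 4.5 h turned to 0.0084 for RA against control and 0.034 for ethanol against control. The block changed no other call.

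For RA against DEAB at 1.5 h limma on the deposited values called 0 genes. At 3 h DESeq2, the fit without a filter on low counts and the fit of all 72 libraries each called 1, against 0. At 4.5 h the fit of all 72 libraries and limma on the deposited values called 0, against 1. Without a filter, DEAB against control at 4.5 h gave 1, against 0. The treatment effect in the 2-way layout called 0 genes when computed on log2 CPM, without a block, against 1. The causes were not tested.

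With 1 clutch left out in turn the counts ran from 0 to 1 for RA against DEAB at 1.5, 3 and 4.5 h and for DEAB against control at 4.5 h, and from 1 to 2 for control embryos at 1.5 h against 0 h. Log2 differences that changed sign ran from -0.0040 to 0.17 for hoxb4.S and from -0.19 to 0.013 for hoxd4.L in RA against control at 4.5 h. In ethanol against control they ran from -0.19 to 0.30 for hoxb4.S at 1.5 h, and for hoxd4.L from -0.44 to 0.010 at 3 h and from -0.10 to 0.045 at 4.5 h. The response of hoxb4.S minus that of hoxd4.L at 3 h ran from -0.23 to 0.19 for ethanol against control and from -0.26 to 0.17 for RA against DEAB, where a prior count of 0.5 gave -0.12. The comparisons between the 2 genes and their alternatives were chosen after the data had been seen. Summing L and S copies left the counts of both members as they were and is not counted here. DESeq2 gave no adjusted p for hoxb4.S in ethanol against control at 1.5 and 4.5 h and for hoxd4.L at 4.5 h. Depth limits what can be said at 0 h, and at 1.5 h for hoxd4.L.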
